A study of Mus musculus with 76 samples.

Results

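The expression and promoter chromatin of 8 genes that are widely used to mark microglia were examined in the embryonic mouse diencephalon. The genes were Csf1r, Aif1, Cx3cr1, P2ry12, Tmem119, C1qa, C1qb and Trem2. They were chosen by name from a list, with earlier results of these data known. All 8 were found among the 56923 genes of the count tables. Microglia are the resident macrophages of the brain. They descend from yolk sac progenitors that enter the neural tube in early embryonic life, and they depend on signalling through the receptor Csf1r for survival. As the brain matures they take on a surveying state, read out by surface proteins such as P2ry12 and Tmem119, and they supply most of the C1q that tags synapses and debris in the brain.

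The study compared wild type C57BL/6J embryos with embryos of a humanized line on the same strain, in which the human sequence of hs754, an enhancer that gained activity in human development, replaced its mouse counterpart on both copies of chromosome 13. Embryos of both genotypes were homozygous, and no other allele or treatment was given for either group. The diencephalon was dissected at E11.5 or E17.5, and a replicate was a pool of littermates, 6 embryos at the early and 3 at the late stage. The 16 RNA libraries made 4 groups of 4 by stage and genotype. ChIP-seq peak lists covered H3K27ac (a mark of active promoters and enhancers), H3K4me3 (a mark of promoters) and H3K27me3 (a mark of Polycomb repression), with 2 early and 3 late replicates of each genotype, and the insulator protein CTCF, with 3 late replicates of each. The whole diencephalon was used, without sorting of cells. The number of microglia, the RNA per microglial cell and RNA from other cells, other macrophages included, therefore cannot be told apart in any value below.

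Libraries held between 16414369 and 24272569 reads assigned to genes. One library stood apart before any gene was considered. The counts of E17.5 wild type replicate 1 differed from those of the other 3 replicates of its group by 199.6 to 248.7 in chi-square per degree of freedom, against 7.18 to 56.4 in the other 21 replicate pairs. Its deviation from its group followed the GC content of the exons, with a Pearson r of 0.70 over 20143 genes, and genes of high GC content were higher by a median of 0.61 on the log2 scale while genes of low GC content were lower (median -0.78). Other libraries also deviated with GC content, with r from -0.56 in E17.5 wild type replicate 2 to 0.53 in E11.5 wild type replicate 2. Their medians were smaller, from -0.23 to 0.18 for genes of high and from -0.27 to 0.30 for genes of low GC content. The wild type stage differences of the 8 genes, and the counts and medians of the gene groups, are given with and without E17.5 wild type replicate 1. For the 8 microglia genes, exon GC content ran from 38.7% in P2ry12 to 59.2% in C1qa, around a median of 49.5% over all genes tested.

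Levels are read counts scaled to 1000000 reads per library (CPM), after TMM scaling over the 16 libraries. They were low throughout. Raw counts, not scaled for gene length, ran from 172 to 723 for Csf1r, which had the most reads of the 8, and from 4 to 27 for Trem2. Every gene had reads in all 16 libraries. The summed level of the 8 genes was 45.5 to 65.1 CPM in E11.5 wild type, 49.1 to 59.6 in E11.5 humanized and 32.0 to 39.9 in E17.5 humanized libraries. In E17.5 wild type it was 85.0 in replicate 1 and 38.0 to 41.4 in the other 3.

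Other cell types were present in the same tissue, as their markers showed. Neuron markers (7 genes) summed to 1456 to 2571 CPM at E11.5 and 6648 to 8984 CPM at E17.5. Pericyte and meningeal markers (8 genes) summed to 1448 to 1962 CPM at E11.5 and 539 to 846 CPM at E17.5. Markers of border-associated macrophages, the macrophages of the meninges and vessels, summed to 77.3 to 96.5 CPM at E11.5 and 66.3 to 85.9 CPM at E17.5. Such sums depend on the genes listed and on their lengths, and do not rank the cell types. Markers of other leukocytes (12 genes) summed to at most 1.68 CPM at E11.5 and 8.77 CPM at E17.5, and 2 to 7 of them had no read in a given library.

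Per kilobase of the exons of the canonical transcript, the 8 genes fell into a higher and a lower set in E11.5 wild type. Csf1r (3.52 CPM per kb), Tmem119 (3.51), C1qa (3.26), Cx3cr1 (2.65) and C1qb (2.64) made up the higher set, and neighbours in this order differed by less than the larger SD of the pair over 4 replicates. P2ry12 (0.559), Aif1 (0.382) and Trem2 (0.370) made up the lower set. In E17.5 humanized embryos the order was C1qa (3.14), Cx3cr1 (2.33), P2ry12 (2.08), Csf1r (2.07), C1qb (1.51), Trem2 (0.548), Tmem119 (0.502) and Aif1 (0.229). There P2ry12 lay in the higher set and Tmem119 in the lower. These 2 groups differ in both stage and genotype. In the other 2 groups, Tmem119 and P2ry12 were 4.15 and 0.353 in E11.5 humanized and 0.751 and 1.57 in E17.5 wild type embryos. Per kilobase of all annotated exons together, Aif1 and Trem2 changed places in the first order, and P2ry12 and Csf1r in the second. C1qb was then 1.07 CPM per kb in E11.5 wild type, below Cx3cr1 at 2.14. In E17.5 humanized embryos it was 0.614, beside P2ry12 at 1.59 and Trem2 at 0.521, so the place of C1qb in the higher set depended on the length used.

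**Figure D1:**
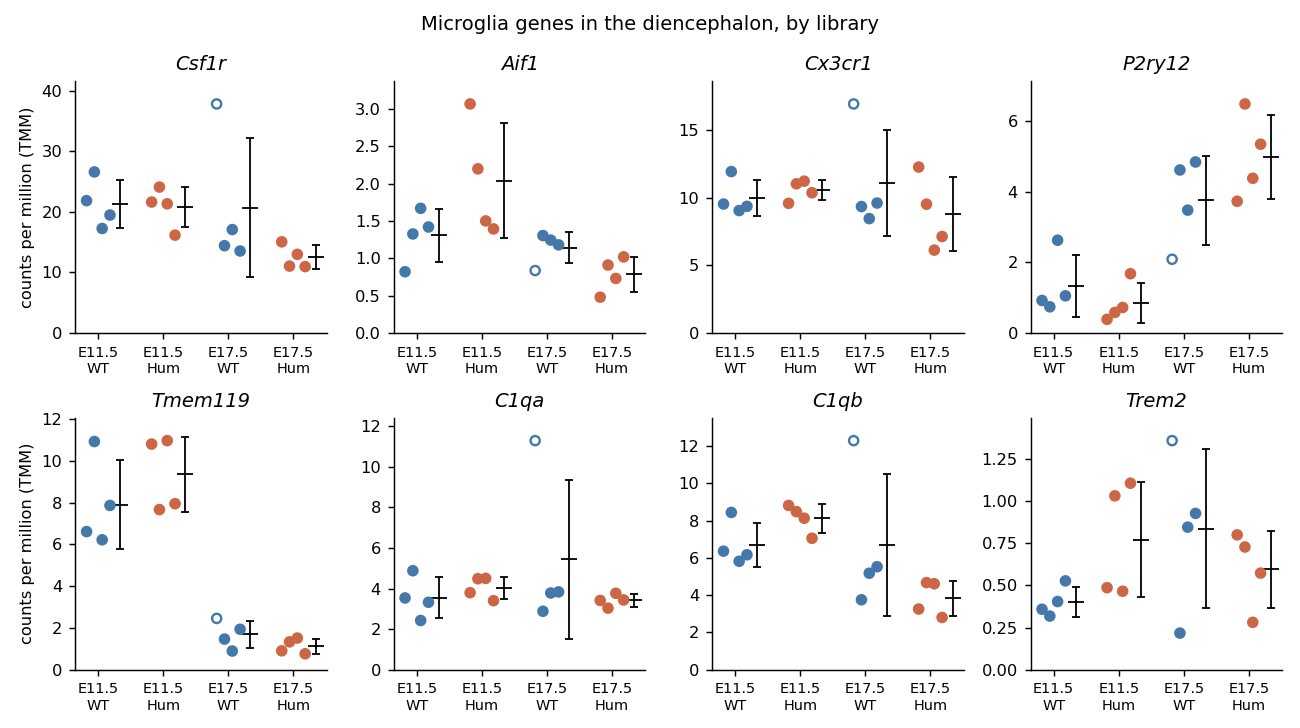
Level of each microglia gene in CPM (TMM-scaled counts; the vertical axis of each panel starts at 0) in every library, by stage and genotype (WT, wild type; Hum, humanized; 4 replicates each), with the mean and SD drawn to the right of the points. The open circle is E17.5 wild type replicate 1, the highest library of its group for Csf1r, Cx3cr1, Tmem119, C1qa, C1qb and Trem2 and the lowest for Aif1 and P2ry12, and the Tmem119 levels of the stages do not overlap in either genotype.

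In E17.5 wild type replicate 1, 6 of the 8 microglia genes were higher than in every other replicate of the group and 2 were lower. C1qa was 11.3 CPM there and 2.88 to 3.84 CPM in the other 3 replicates. Csf1r was 37.8 CPM against 13.5 to 17.1 CPM, and P2ry12 was 2.09 CPM against 3.48 to 4.85 CPM. The log2 ratio of this library to the mean of the other 3 ran from -1.05 for P2ry12, with the lowest exon GC content of the 8, to 1.69 for C1qa, with the highest. The part that GC content has in the single ratios was not tested.

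**Figure D2:**
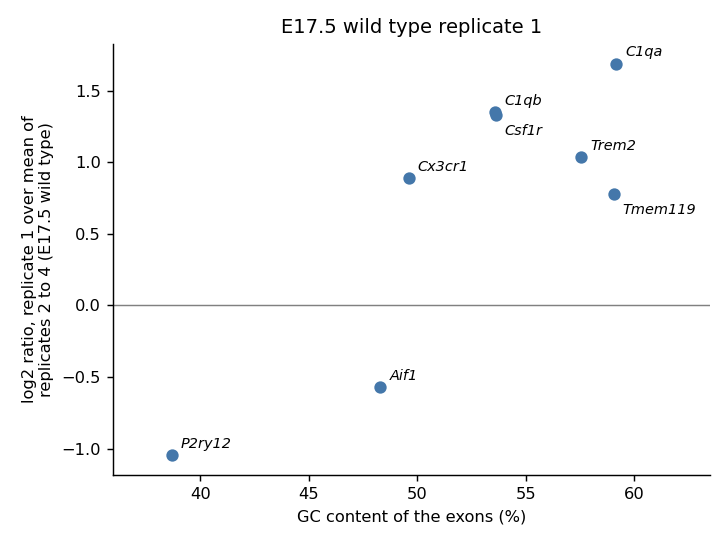
Log2 ratio of E17.5 wild type replicate 1 to the mean of replicates 2 to 4 (vertical axis) against the GC content of the gene's exons in percent (horizontal axis), 1 point per microglia gene. P2ry12 (38.7% GC) lies at -1.05 and C1qa (59.2% GC) at 1.69, and Aif1 (48.3% GC) is the other gene below 0.

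Between stages, the gene with the largest change in both genotypes was Tmem119, which encodes a transmembrane protein used to tell microglia from other macrophages. Its level in the 4 wild type replicates was 6.61, 10.9, 6.22 and 7.87 CPM at E11.5 and 2.46, 1.47, 0.896 and 1.94 CPM at E17.5. In humanized replicates it was 10.8, 7.67, 10.97 and 7.95 CPM at E11.5 and 0.907, 1.33, 1.52 and 0.764 CPM at E17.5. The stages did not overlap in either genotype. Tmem119 fell by 2.23 ± 0.32 on the log2 scale in wild type (SE, quasi-likelihood F test of edgeR, Benjamini-Hochberg adjustment over all genes, adjusted p = 0.000194) and by 3.05 ± 0.24 in humanized embryos (edgeR adjusted p = 2.43e-07).

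Tmem119 is also known from bone-forming cells, and most but not all pericyte and meningeal markers moved in the same direction. Of these 8, 5 were called lower and 2 higher in wild type (26.7% and 29% of all genes). Without E17.5 replicate 1, 6 were lower and 2 higher (36.3% and 36%), as in humanized embryos (39.5% and 38.2%). The part of such cells in the Tmem119 result was not tested. Without E17.5 wild type replicate 1, Tmem119 fell by 2.46 ± 0.29 in wild type (edgeR adjusted p = 7.22e-06).

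P2ry12, a purinergic receptor with which microglia sense nucleotides, changed in the opposite direction. Its level in wild type was 0.923, 0.743, 2.63 and 1.05 CPM at E11.5 and 2.09, 4.62, 3.48 and 4.85 CPM at E17.5, so that the highest E11.5 library lay above the lowest E17.5 library. In humanized embryos it was 0.389, 0.583, 0.724 and 1.68 CPM at E11.5 and 3.73, 6.49, 4.39 and 5.35 CPM at E17.5, with no overlap. The log2 fold change was 1.47 ± 0.44 in wild type (edgeR adjusted p = 0.0148), 1.67 ± 0.36 without E17.5 wild type replicate 1 (edgeR adjusted p = 0.00108) and 2.50 ± 0.38 in humanized embryos (edgeR adjusted p = 7.19e-05).

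P2ry12 lies within the protein-coding gene Med12l (chr3:58913242-59226103) on the opposite strand, and the exons of the genes share 148 bp. The level of Med12l moved with that of P2ry12, from 9.49 to 16.8 CPM at E11.5 to 53.8 to 73.8 CPM at E17.5, except for 18.8 CPM in E17.5 wild type replicate 1. On the strand column, 98.1% of the P2ry12 reads were kept. With offsets for exon GC content, an alternative chosen after seeing the data, the P2ry12 fold change was 0.52 (edgeR adjusted p = 0.125) in wild type and 0.77 (edgeR adjusted p = 0.0158) in humanized embryos.

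Across the 8 genes, 2 were called in wild type, P2ry12 higher and Tmem119 lower, against a background of 55.7% of 18583 tested genes called (29% higher and 26.7% lower). Without E17.5 wild type replicate 1, 4 were called, P2ry12 and Tmem119 with 2 more that were lower, Csf1r (log2 fold change -0.53, edgeR adjusted p = 0.0135) and C1qb (-0.49, edgeR adjusted p = 0.0438), while 72.3% of 19351 genes were called (36% higher and 36.3% lower). In humanized embryos 5 of the 8 were called, 1 higher and 4 lower, against 77.7% of 18781 genes (38.2% higher and 39.5% lower). All 8 genes passed the filter on low counts in these comparisons. Their median log2 fold change was 0.07 in wild type, -0.12 without replicate 1 and -0.57 in humanized embryos, beside medians over all genes of -0.01, -0.04 and -0.04. With GC-content offsets 3 were called in wild type, C1qa and Trem2 higher and Tmem119 lower. In humanized embryos 4 were called with these offsets, P2ry12 higher and Tmem119, C1qb and Aif1 lower. The medians were 0.21 and -0.13.

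Csf1r (chr18:61229714-61266535), the receptor for the growth factors Csf1 and Il34, was 21.8, 26.6, 17.2 and 19.5 CPM in E11.5 wild type and 37.8, 14.4, 17.1 and 13.5 CPM in E17.5 wild type. In humanized embryos it was 21.6, 24.1, 21.3 and 16.1 CPM at E11.5 and 15.04, 11.04, 12.99 and 10.96 CPM at E17.5, with every E17.5 library below every E11.5 library. It fell by 0.74 ± 0.15 in humanized embryos (edgeR adjusted p = 0.000755), and the wild type difference was -0.05 ± 0.32 (edgeR adjusted p = 0.908). With GC-content offsets the humanized difference was -0.13 (edgeR adjusted p = 0.343). The exons of Csf1r share 1321 bp with those of Hmgxb3 on the opposite strand. In humanized embryos Hmgxb3 was 48.5 to 68.0 CPM at E11.5 and 30.5 to 36.9 CPM at E17.5, and in E17.5 wild type replicate 1 it was 68.7 CPM. On the strand column, 99.95% of the Csf1r reads were kept.

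C1qb and C1qa encode chains of C1q, the recognition unit of the classical complement pathway. C1qb was 6.36, 8.43, 5.82 and 6.16 CPM in E11.5 wild type and 12.3, 3.75, 5.17 and 5.52 CPM in E17.5 wild type. In humanized embryos it was 8.81, 8.48, 8.12 and 7.05 CPM at E11.5 and 3.25, 4.67, 4.61 and 2.80 CPM at E17.5. The humanized stages did not overlap, and C1qb fell by 1.09 ± 0.19 there (edgeR adjusted p = 0.00021), against -0.01 ± 0.34 in wild type (edgeR adjusted p = 0.981). With GC-content offsets the humanized difference was -0.47 (edgeR adjusted p = 0.031).

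C1qa overlapped between stages in both genotypes. It was 2.43 to 4.88 CPM in E11.5 wild type, 2.88 to 11.3 CPM in E17.5 wild type, 3.40 to 4.50 CPM in E11.5 humanized and 3.03 to 3.77 CPM in E17.5 humanized libraries. Neither stage difference passed the test, at 0.61 ± 0.42 in wild type (edgeR adjusted p = 0.241) and -0.25 ± 0.17 in humanized embryos (edgeR adjusted p = 0.197). Without E17.5 wild type replicate 1 the wild type value was -0.03 ± 0.25 (edgeR adjusted p = 0.913). With GC-content offsets the wild type difference was 0.68 (edgeR adjusted p = 0.0256).

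Aif1, which encodes the actin-binding protein IBA1, was 0.820, 1.33, 1.67 and 1.42 CPM in E11.5 wild type and 0.836, 1.305, 1.24 and 1.18 CPM in E17.5 wild type. In humanized embryos it was 3.07, 2.197, 1.5005 and 1.39 CPM at E11.5 and 0.480, 0.910, 0.731 and 1.02 CPM at E17.5, with no overlap. It fell by 1.39 ± 0.34 in humanized embryos (edgeR adjusted p = 0.00246), on raw counts of 9 to 63 reads. The wild type difference was -0.21 ± 0.31 (edgeR adjusted p = 0.587), and -0.10 ± 0.30 without replicate 1 (edgeR adjusted p = 0.779). The exons of Aif1 share 326 bp with the noncoding gene Gm17705 on the opposite strand, and 96.5% of the Aif1 reads were kept on the strand column.

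Cx3cr1, the receptor through which microglia receive the neuronal chemokine Cx3cl1, did not pass the stage test in either genotype. Its level was 9.05 to 11.9 CPM in E11.5 wild type, 8.46 to 16.9 CPM in E17.5 wild type, 9.59 to 11.2 CPM in E11.5 humanized and 6.13 to 12.3 CPM in E17.5 humanized libraries. The log2 fold changes were 0.14 ± 0.25 (edgeR adjusted p = 0.639) and -0.27 ± 0.20 (edgeR adjusted p = 0.232), and the first was -0.15 ± 0.15 without E17.5 replicate 1 (edgeR adjusted p = 0.411).

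Trem2, a lipid-sensing receptor that signals through the adaptor Tyrobp, had the fewest reads. It was 0.359, 0.318, 0.405 and 0.527 CPM in E11.5 wild type and 1.36, 0.217, 0.846 and 0.927 CPM in E17.5 wild type, a difference of 1.03 ± 0.49 (edgeR adjusted p = 0.0969). In humanized embryos it was 0.487, 1.03, 0.466 and 1.11 CPM at E11.5 and 0.800, 0.728, 0.281 and 0.573 CPM at E17.5 (log2 fold change -0.40 ± 0.42, edgeR adjusted p = 0.395). Leaving out single libraries, the wild type difference ran from 0.71 ± 0.48 without E17.5 replicate 1 (edgeR adjusted p = 0.199) to 1.36 without E17.5 replicate 2, its lowest library (edgeR adjusted p = 0.0114). With GC-content offsets it was 1.14 (edgeR adjusted p = 0.0366).

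**Figure D3:**
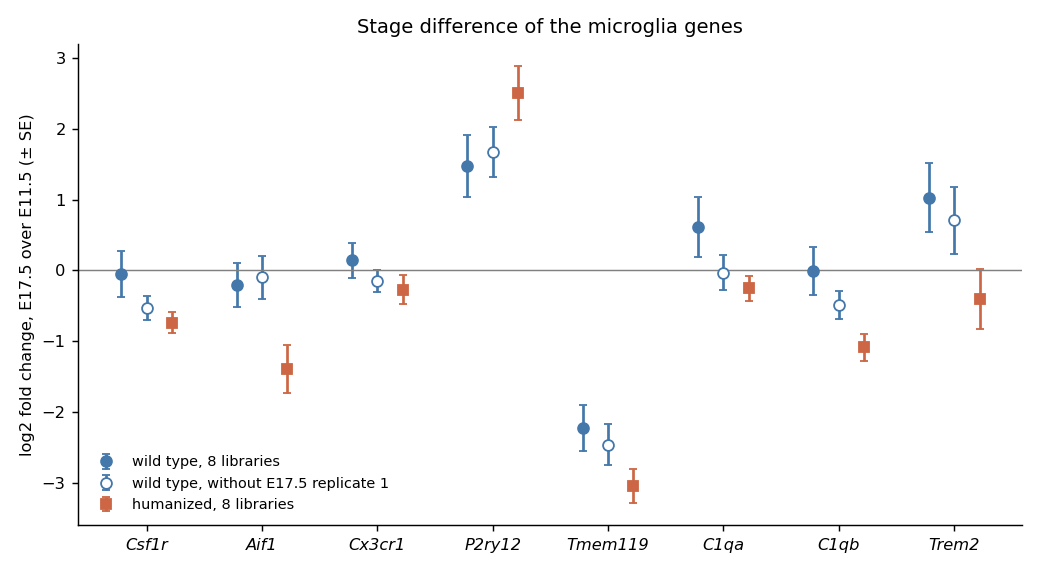
Log2 fold change of E17.5 over E11.5 with its SE (vertical axis) for each microglia gene (horizontal axis) in wild type with all 8 libraries (filled circles), in wild type without E17.5 replicate 1 (open circles) and in humanized embryos (squares). P2ry12 lies above 0 and Tmem119 below 0 in all 3 series, and for Csf1r and C1qb the wild type value moves from -0.05 and -0.01 to -0.53 and -0.49 when replicate 1 is left out.

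Genes that act with the 8 did not move as 1 group between stages. Of 5 ligands of their receptors, 4 were called higher in both genotypes, Il34 (log2 fold change 2.79 in wild type and 2.94 in humanized embryos), Clu (3.47 and 2.83), Cx3cl1 (2.38 and 1.61) and Apoe (1.77 and 0.93). Csf1 was -0.19 (edgeR adjusted p = 0.564) in wild type and fell by 0.62 in humanized embryos. Over all genes, 29% were called higher and 26.7% lower in wild type, and 38.2% and 39.5% in humanized embryos. The median of the 5 ligands was 2.38 in wild type and 1.61 in humanized embryos. When E17.5 wild type replicate 1 was left out it was 2.00, and Csf1 was called lower (-0.51, edgeR adjusted p = 0.00841) beside the same 4 called higher. In that fit 36% of all genes were called higher and 36.3% lower.

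Of 5 tested partners of Trem2 and Csf1r signalling, 1 was higher and 2 lower in wild type (29% and 26.7% of all genes). In humanized embryos 0 were higher and 4 lower (38.2% and 39.5%). The wild type counts without E17.5 replicate 1 were 1 higher and 3 lower (36% and 36.3% of all genes). The kinase Syk (-1.01 and -1.78) and the phospholipase Plcg2 (-1.16 and -1.65) were lower in both genotypes. Tyrobp was -0.34 (edgeR adjusted p = 0.385) in wild type and fell by 0.85 (edgeR adjusted p = 0.025) in humanized embryos.

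All 8 myeloid and microglial transcription factors were called lower in humanized embryos and 4 of 8 in wild type, with medians of -1.45 and -0.50. Over all genes, 39.5% and 26.7% were called lower. With E17.5 wild type replicate 1 left out, 4 of 8 were lower (36.3% of all genes) and the median was -0.80. Sall1 fell by 1.87 in wild type and by 2.09 in humanized embryos, and Runx1 was -1.34 and -1.502. Sall1 is also expressed by neural progenitors. Of 8 progenitor markers, 7 were called lower and 1 higher in both genotypes. Over all genes, 26.7% were lower and 29% higher in wild type, and 39.5% and 38.2% in humanized embryos. The part of progenitors in the Sall1 result was not tested. Spi1, which encodes the myeloid factor PU.1, was -0.28 (edgeR adjusted p = 0.67) in wild type and fell by 1.41 (edgeR adjusted p = 0.0187) in humanized embryos.

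Among 21 other microglia and macrophage genes, 2 were higher and 1 lower in wild type (29% and 26.7% of all genes, median 0.15). In humanized embryos 3 were higher and 9 lower (38.2% and 39.5% of all genes, median -0.07). Gpr34 and Siglech rose by 1.25 and 1.37 in humanized embryos, where Laptm5 fell by 1.40 and Fcer1g by 1.23. Without E17.5 wild type replicate 1, the wild type counts were 4 higher and 3 lower (36% and 36.3% of all genes, median -0.13).

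Of the complement genes that act with C1q, 1 of 6 tested was higher and 2 lower in wild type (29% and 26.7% of all genes). In humanized embryos 2 of 7 were higher and 2 lower (38.2% and 39.5%). The wild type counts were the same without E17.5 replicate 1 (36% and 36.3% of all genes). C3 rose by 3.38 and 3.58, and Itgb2, a chain of complement receptor 3, was lower in both (-1.116 and -1.62). C1qc, the third chain of C1q, was 0.45 (edgeR adjusted p = 0.277) in wild type and -0.29 (edgeR adjusted p = 0.275) in humanized embryos. Of 6 tested border-associated macrophage markers, 1 was higher and 2 lower in wild type, 3 higher and 2 lower without E17.5 replicate 1 (36% and 36.3% of all genes), and 4 higher and 2 lower in humanized embryos (38.2% and 39.5%). Cd163 had no reads in the 4 humanized libraries at E11.5 and was 1.78 to 2.49 CPM there at E17.5, while Mrc1 rose by 1.20 and Pf4 fell by 1.71.

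Between genotypes, 0 of the 8 genes were called at either stage, where 0% of all tested genes were called. At E11.5, 7 of the 8 were tested, since Trem2 did not pass the filter on low counts, and the edgeR test called 0 of 17816 genes, with 1058 at an unadjusted p under 0.05 and 2 called by DESeq2. The microglia genes had log2 fold changes, humanized over wild type, from -0.65 ± 0.51 for P2ry12 to 0.60 ± 0.31 for Aif1, with a median of 0.17 beside 0.00 over all genes, and the lowest of their edgeR adjusted p-values was 0.577. The ranges of the genotypes overlapped for all 7, as in C1qb, at 5.82 to 8.43 CPM in wild type and 7.05 to 8.81 CPM in humanized libraries.

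At E17.5 all 8 were tested, and edgeR called 0 of 18763 genes, with 207 at an unadjusted p under 0.05 and 1 called by DESeq2. The microglia genes had a median of -0.56 beside -0.03 over all genes, from -0.81 ± 0.37 for C1qb to 0.40 ± 0.30 for P2ry12, and every edgeR adjusted p was 0.808. Most of these values moved with 1 library. Without E17.5 wild type replicate 1 the median was -0.23, Csf1r moved from -0.74 to -0.27 C1qa from -0.68 to -0.04 and C1qb from -0.81 to -0.34, while Aif1 moved from -0.55 to -0.67, and every edgeR adjusted p for the 8 was 0.99995. With GC-content offsets the median was -0.28. Every humanized E17.5 library lay below E17.5 wild type replicate 1 for Csf1r, Cx3cr1, Tmem119, C1qa, C1qb and Trem2, and above it for P2ry12. For Csf1r, C1qb and C1qa the humanized range overlapped that of the other 3 wild type replicates. For Aif1 it did not, at 0.480 to 1.02 CPM in humanized libraries and 1.18 to 1.305 CPM in those 3 replicates.

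Whether the stage difference itself differed between genotypes was tested as an interaction over all 16 libraries. The edgeR test called 0 of 20234 genes, 0%, with 1610 at an unadjusted p under 0.05 and 0 called by DESeq2, and 0 of the 8 microglia genes. The stage difference in humanized embryos minus that in wild type was -1.18 ± 0.46 for Aif1, -1.08 ± 0.41 for C1qb and 1.04 ± 0.60 for P2ry12 on the log2 scale, each with an edgeR adjusted p of 0.462. The median of the 8 was -0.84 beside -0.04 over all genes, -0.41 without E17.5 wild type replicate 1 and -0.37 with GC-content offsets. The stage differences called in 1 genotype only, those of Csf1r, Aif1 and C1qb, were thus not shown to differ between genotypes.

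The genes whose levels varied most like the mean of the 8 within groups were Snx33, Gtse1, Otulin, Cd34, Ryk, Fam210b, Parvb, Actr8, Gm5559 and Ube2e2, with Pearson r of 0.90 to 0.92 for log2 deviations from the group mean over 16 libraries. None of them was in the lists of microglia or other cell type genes. These values rested on E17.5 wild type replicate 1, since r was 0.55 to 0.71 for the same genes over the other 15 libraries. Among the 8 microglia genes themselves, the 28 pairs had a median r of 0.22, from -0.80 to 0.92, and a median of 0.03 without that library. All points share the libraries and their depth, and the values are descriptions only.

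The promoters of the 8 genes were then compared with the peak lists. A gene was counted as marked where a peak lay within 1000 bp of its start in every replicate, with starts and positions from GENCODE on GRCm39, the build of the lists. The annotated gene start and the start of the canonical transcript were the same for P2ry12 (chr3:59123682-59170429, minus strand), Tmem119 (chr5:113931781-113938577, minus), C1qa (chr4:136623223-136626161, minus), C1qb (chr4:136606009-136613511, minus) and Trem2 (chr17:48653429-48661175, plus). For Csf1r (plus strand, at the position given above), Aif1 (chr17:35387384-35395053, minus) and Cx3cr1 (chr9:119877749-119898945, minus) the canonical start lay 9176, 3258 and 1578 bp inside the gene, so both starts were used.

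All 8 promoters were poor in CpG. Over 1001 bp around the canonical start the ratio of observed to expected CpG ran from 0.162 in Aif1 to 0.342 in P2ry12, beside a median of 0.576 over 21618 protein-coding promoters, of which 47.8% reached 0.6. The 250 bases upstream of the start are shown in transcript direction for Tmem119 and P2ry12, which had a mark at the gene start in every wild type replicate of one stage and in none of the other, from the GRCm39 minus strand at chr5:113938578-113938827 and chr3:59170430-59170679, with CG dinucleotides in capitals. They hold 5 and 4 CpGs.
Tmem119: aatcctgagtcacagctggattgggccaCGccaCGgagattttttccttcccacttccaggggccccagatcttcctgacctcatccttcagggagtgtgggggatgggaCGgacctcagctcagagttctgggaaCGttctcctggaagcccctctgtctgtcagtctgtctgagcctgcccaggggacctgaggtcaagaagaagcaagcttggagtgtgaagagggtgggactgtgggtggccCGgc
P2ry12: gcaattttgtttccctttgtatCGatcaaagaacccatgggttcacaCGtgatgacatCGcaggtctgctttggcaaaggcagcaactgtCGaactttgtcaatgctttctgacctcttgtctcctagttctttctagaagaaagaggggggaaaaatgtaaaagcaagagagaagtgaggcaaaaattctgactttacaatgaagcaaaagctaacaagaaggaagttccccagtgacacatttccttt

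The letters GAGGAA, a core that PU.1 can bind, were searched on both strands in the 250 bases upstream of each canonical start. They occurred upstream of Csf1r, C1qb and Trem2, 3 of 8, and in 23.0% of all protein-coding promoters.

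Within 1000 bp of its start, Tmem119 had H3K4me3 peaks at E11.5 only and H3K27me3 peaks at E17.5 only. H3K4me3 peaks within 1000 bp of its start were present in both E11.5 wild type replicates (fold enrichment 8.51 and 5.45) and both E11.5 humanized replicates (3.75 and 3.88), and in 0 of 3 replicates of either genotype at E17.5. H3K27me3 peaks were present in 0 of 2 E11.5 replicates of either genotype, in all 3 E17.5 wild type replicates (4.66, 2.82 and 2.81) and in 2 of 3 E17.5 humanized replicates (3.15 and 3.13). The absence of H3K27me3 at E11.5 depended on the start used. With all annotated transcript starts it was listed in 1 of 2 wild type and 2 of 2 humanized E11.5 replicates. Over the gene and the 10000 bp upstream, it covered 1283 to 1664 bp in 3 of the 4 lists at E11.5 and 2698 to 7702 bp in the 6 lists at E17.5. The H3K4me3 peaks, such as chr5:113938000-113938481 in wild type replicate 1, lay downstream of the start, inside the gene, and the H3K27me3 peaks spanned the start and reached into the sequence shown above. Fisher's exact test of presence by stage gave p = 0.1 for each mark in wild type, two-sided, the smallest that 2 against 3 replicates allow. The wild type H3K27me3 lists held 13850 to 19166 peaks at the early stage and 27452 to 43700 at the late one, and the H3K4me3 lists 23864 to 25080 and 23471 to 24877. The part of list size in these counts was not tested.

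H3K27ac at Tmem119 was listed in 1 of 2 E11.5 wild type replicates (fold enrichment 2.89) and in no E17.5 list. The lists come from whole tissue, so which cells carried the marks cannot be told apart.

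At the P2ry12 start, H3K27ac peaks were present in all 3 E17.5 wild type replicates (3.85, 2.87 and 4.17) and in 2 of 3 humanized replicates (3.68 and 3.24), and in 0 of 2 replicates of either genotype at E11.5. The exact test in wild type gave p = 0.1. The wild type H3K27ac lists held 32418 to 36150 peaks at the early stage and 62720 to 77419 at the late one, and the part of this difference was not tested. The peaks were weak, with -log10 q of 4.11, 2.76 and 5.96 in wild type, and lay at different places around the start, from chr3:59169618-59169826 in replicate 1 to chr3:59170336-59170597 in replicate 3. H3K4me3, H3K27me3 and CTCF peaks were absent within 1000 bp in every list of both genotypes.

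At Csf1r, no list had a peak within 1000 bp of the gene start. At the canonical start, H3K27ac peaks were present in 1 of 2 E11.5 wild type replicates (fold enrichment 5.32), both E11.5 humanized replicates (3.73 and 4.91), all 3 E17.5 wild type replicates (4.72, 5.61 and 4.43) and 1 of 3 E17.5 humanized replicates (5.53). None of the lists had an H3K4me3 or H3K27me3 peak there. Aif1 was similar at its canonical start, with an H3K27ac peak in 1 of 3 E17.5 wild type replicates (4.42) and 2 of 3 humanized replicates (4.78 and 4.06) and none at E11.5.

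C1qa was the only one of the 8 with CTCF peaks near its start, in all 3 wild type replicates (8.61, 8.29 and 10.9) and all 3 humanized replicates (10.3, 3.84 and 9.36). The 6 peaks shared 305 bp, chr4:136626519-136626823, upstream of the gene. The central 200 bases of that interval (chr4:136626572-136626771, minus strand) are shown because they lie under the peaks of highest fold enrichment at the starts of the 8 genes, with the match to the 12-letter core of the CTCF consensus motif, searched on both strands with its variable positions left free, in capitals.
C1qa CTCF: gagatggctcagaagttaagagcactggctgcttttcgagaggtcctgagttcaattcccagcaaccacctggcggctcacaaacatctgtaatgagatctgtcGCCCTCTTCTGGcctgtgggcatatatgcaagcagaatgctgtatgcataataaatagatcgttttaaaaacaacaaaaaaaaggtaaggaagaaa

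The match is on the strand opposite to the one printed, and 1.499% of the windows of the same length and distance at 21618 protein-coding genes hold one. C1qa also had H3K27me3 peaks in 2 of 3 E17.5 wild type replicates (5.96 and 6.06) and 1 of 3 humanized replicates (2.73), and no H3K27ac or H3K4me3 peak within 1000 bp. C1qb had an H3K27ac peak in E11.5 wild type replicate 1 (2.90) and E17.5 wild type replicate 2 (3.17) and no other promoter peak. Cx3cr1 and Trem2 had no peak of any mark at either start in any list.

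**Figure D4:**
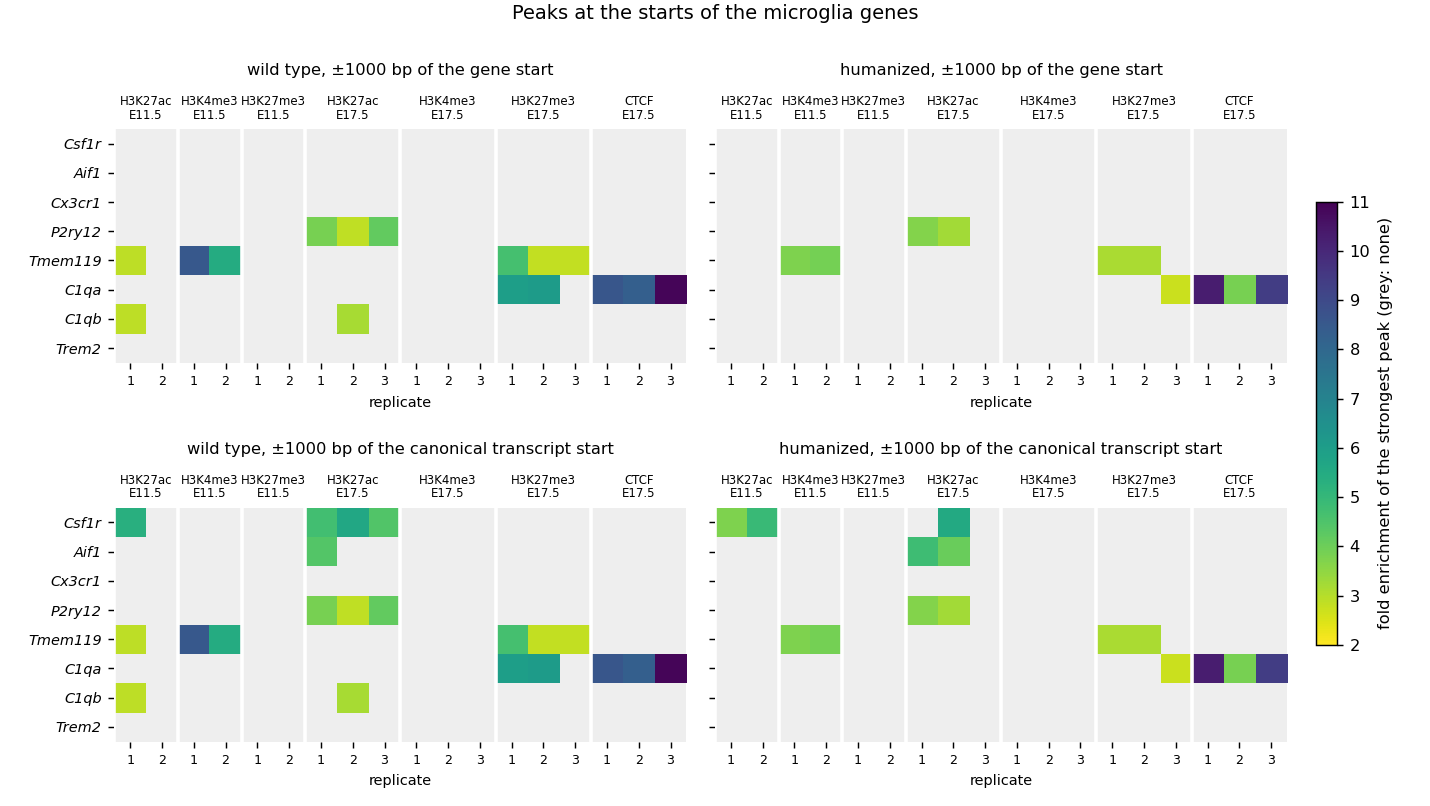
Fold enrichment of the strongest peak within 1000 bp of the gene start (upper panels) or the canonical transcript start (lower panels) for each microglia gene (rows) in each replicate of each peak list (columns), wild type on the left and humanized on the right, with grey where no peak was listed. Tmem119 has H3K4me3 peaks at E11.5 and H3K27me3 peaks at E17.5, P2ry12 has H3K27ac peaks at E17.5, and C1qa has CTCF peaks in all 6 lists.

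Counted in every wild type replicate at the gene start, H3K27ac marked 0 of 8 microglia genes at E11.5, where 44.9% of protein-coding genes were marked, and 1 of 8 at E17.5 (P2ry12), where 54.5% were. H3K4me3 marked 1 of 8 at the early stage (Tmem119, background 60.5%) and 0 of 8 at the late stage (60.7%). H3K27me3 marked 0 of 8 at the early stage (18.8%) and 1 of 8 at the late stage (Tmem119, 18.8%), and CTCF marked 1 of 8 at E17.5 (C1qa, 32.3%). With the canonical start, H3K27ac at E17.5 marked 2 of 8 (Csf1r and P2ry12, background 57.2%), and the other counts did not change.

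Among the 8 myeloid and microglial transcription factors, H3K4me3 (60.5% of all protein-coding genes) and H3K27me3 (18.8%) marked 6 each at E11.5. These were the same genes, with Irf8, Sall1 and Cebpa among them. H3K27me3 marked 7 of 8 at E17.5 (18.8%). Of 21 other microglia and macrophage genes, H3K27ac marked 3 at each stage (44.9% and 54.5%), with Olfml3 and Lyn among them.

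Over the gene and the 10000 bp upstream of it, CTCF peaks lay in all 3 wild type lists for 6 of the 8 genes, as for 68.1% of all protein-coding genes. They were those of Cx3cr1 (up to 46.1-fold), Aif1 (up to 37.0-fold), C1qb (up to 33.5-fold), Trem2 (up to 31.9-fold), C1qa and Csf1r. H3K4me3 peaks were present in all 5 wild type lists for 2 of 8 (69.2% of all genes), Aif1 (13.3- to 21.1-fold) and C1qa (3.52- to 5.47-fold). The Aif1 peaks lay within 1000 bp of neither start of the gene. In the E17.5 wild type lists the C1qa peaks (3.52, 5.47 and 3.60) were also those of C1qb, where the spans of these genes overlap. H3K27me3 peaks were present in all 5 for 2 of 8 (24.6%), C1qa and C1qb, whose spans overlap, and covered 3372 to 10317 bp of the C1qa span. H3K27ac peaks were present in all 5 for 1 of 8 (55.9%), Csf1r, and absent from the spans of Cx3cr1, C1qa and Trem2 in every wild type list. The median span was 17709 bp for the 8 genes and 29299 bp over all genes, and a longer span can hold more peaks.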

How the data were processed

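RNA-seq and ChIP-seq of whole diencephalon from homozygous wild type and humanized C57BL/6J embryos were analysed, 16 RNA libraries and 36 peak lists, and the 24 input samples were not analysed here. The authors aligned RNA reads to mm39 with STAR 2.7.9a against GENCODE basic release 31 and deposited raw counts of reads per gene, without strand (used here) and by strand. Between 48.1% and 58.4% of the reads in a library stood on lines without a gene, which were left out. The authors aligned ChIP reads with Bowtie2 2.4.2, for humanized samples to mm39 with the human sequence inserted, removed duplicate and multi-mapping reads, and called peaks per replicate with MACS2 2.2.7.1. The deposited lists give the fold enrichment over local background, the -log10 of the p-value and q-value, and an integer score derived from the q-value, which was not used here. The H3K27me3 lists have the broad-peak form, and how they were called is not given in the sources used here. According to the methods of the study the H3K27ac antibody lot also bound another acetylated histone residue.

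The 8 genes, the gene lists and the tests were chosen with earlier results of these data known. Counts were filtered (filterByExpr), TMM-scaled and tested with edgeR 4.0.16 (quasi-likelihood, R 4.3.3) within each genotype or stage, and over 16 libraries for the interaction. A gene was called where its Benjamini-Hochberg adjusted p was below 0.05, and SEs are the log2 fold change over the square root of F. Each replicate was a pool of embryos from a litter, and p-values measure the spread between such pools. Replicate numbers did not pair the samples. Gene positions, exon lengths and sequences came from GENCODE release 39 on GRCm39. Promoters were 1000 bp to either side of the start, with 1 bp of overlap, over 21618 protein-coding genes. Of a list, the up to 4 genes with the largest change and a few set genes (Tyrobp, Spi1, Csf1, Il34, Cx3cl1 and C1qc among them) could be named, and some of these are not reported here. Alternatives were DESeq2 1.42.0, DESeq2 size factors, library size only, no low-count filter, the strand column, all 16 libraries, the replicate number as a block, leaving out each replicate, a 2500-bp window, all transcript starts, -log10 q of at least 5 and 200 bp of overlap. GC-content offsets in 20 bins, the canonical start and the lists without E17.5 wild type replicate 1 were chosen after seeing the data. The tests were tested on simulated data. Peak lists hold no read depth, so no interval is given for them. Python 3.11.15, pandas 2.3.3 and scipy 1.17.1 were used.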

Additional observations from a re-analysis of the deposited data

Results flagged for a closer look

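In 5 of the 32 groups of 4 libraries formed by the 8 microglia genes, 1 library lay far from the other 3 by Dixon's criterion, which chance exceeds in about 1 of 20 groups. E17.5 wild type replicate 1 was such a library for Csf1r (37.8 CPM, next highest 17.1), Cx3cr1 (16.9 CPM, next highest 9.61) and C1qa (11.3 CPM, next highest 3.84). E11.5 wild type replicate 2 was 11.9 CPM for Cx3cr1, with 9.54 CPM as the next highest. E11.5 wild type replicate 3 was 2.63 CPM for P2ry12, with 1.05 CPM as the next highest. The deviations of E11.5 wild type replicates 2 and 3 from their group had r of 0.53 and -0.55 with exon GC content. The part of GC content in these flags was not tested.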

How the results depend on the processing

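Of 680 alternative values of the 5 sets of log2 fold changes, 653 kept their direction and side of the threshold. In the genotype and interaction sets 0 microglia genes were called under any setting, so only directions varied there. Between stages in wild type, leaving out single replicates reversed 10 values and 3 more became called. Other alternatives reversed 5 in that set, while 2 became called and 1 was no longer called. All 64 alternative levels moved by less than 1 SD. Genes called between genotypes were 2 (DESeq2) and 1 (all 16 libraries) at E11.5 and 1 (DESeq2) at E17.5, against 0. Leaving out single replicates, 2 to 4 microglia genes were called between stages in wild type, with 4 only without E17.5 replicate 1. Over the same fits, log2 fold changes ran from -0.14 to 0.063 for Csf1r between genotypes at E11.5, and between stages in wild type from -0.53 to 0.11 for Csf1r, -0.15 to 0.27 for Cx3cr1, -0.032 to 0.84 for C1qa and -0.49 to 0.20 for C1qb. The wild type C1qb difference (-0.01) was 0.029 with DESeq2, 0.032 with its size factors in edgeR and 0.0011 with the strand column. GC-content offsets gave 0.11 for Csf1r and 0.15 for C1qb in wild type and 0.37 for C1qa and 0.20 for Trem2 in humanized embryos. The cause was not tested in any of these. Scaling by library size alone moved the median of all genes between stages to -0.13 in both genotypes, from -0.01 in wild type and -0.04 in humanized embryos.

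In wild type lists, microglia genes marked by H3K27ac at E11.5 (0) were 1 with all transcript starts and 0 to 2 leaving out a replicate, and at E17.5 (1) 2 with all starts, 2 with the canonical start and 0 at -log10 q of at least 5. H3K27me3 marked 1 at E11.5 with a 2500-bp window (0), and at E17.5 (1) 2 with that window, 0 at -log10 q of at least 5 and 1 to 2 leaving out a replicate. CTCF marked 2 with the 2500-bp window (1).

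With the replicate number as a block, 0 genes were called between genotypes and in the interaction, and 9466 and 14454 between stages in wild type and humanized embryos, with 2 and 5 microglia genes. Same-numbered replicates did not deviate together throughout (r from -0.55 to 0.58), and at most 2 of 4 correlated best with their own number. Trem2 at 4 to 27 reads and Aif1 at 9 to 63 reads were the shallowest, and a p that missed the threshold does not show that levels were alike.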
